A study of Macaca mulatta with 6 samples.

Results

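Kinesins, dyneins, tubulins and stathmins were examined in serotonin neurons of female rhesus macaques. They were taken as the probe sets whose platform annotation gives exactly 1 gene symbol, beginning with KIF and a digit or C, with KLC and a digit, or with DYNC, DYNL, DCTN, TUBA, TUBB, TUBG or STMN. This rule found 113 probe sets of 64 genes among the 52766 probe sets of the array that are not controls. Of those 24956 carry 1 symbol, for 9139 genes. The neurons had been cut from sections of the dorsal raphe nucleus by laser capture, and each of the 6 arrays held the RNA of 1 monkey. The groups were estrogen together with progesterone (EP, 2 animals), estrogen alone (2 animals) and placebo (2 animals). All had carried subcutaneous capsules for 1 month, and the placebo titles also bear the tag Ovx, which the hormone titles do not. Each replicate was a different monkey, and with only 2 in a group all estimates are imprecise.

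Microtubules are polar filaments of alpha- and beta-tubulin that run the length of an axon. Kinesins carry vesicles, mitochondria and RNA along them toward the terminal, and cytoplasmic dynein, with its cofactor dynactin, carries endosomes and trophic signals back to the cell body. Stathmins bind free tubulin and favor microtubule disassembly, most of all in growing neurites. Serotonin neurons depend on this traffic because their axons reach from the raphe to most of the forebrain.

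Signal here is the deposited linear intensity, and an array's floor is the level that 95% of its 59 control probe sets without an expected target stay under. Floors lay at 74.9 and 283 for the EP animals, 29.99 and 51.6 for the estrogen animals, and 216 and 221 for the placebo animals, so a signal near 200 stood above the floor on some arrays and below it on others. Log2 differences, the overlap of groups and every fold bound are therefore given on quantile-normalized log2 signals. The differences carry moderated standard errors (SE) from limma. Signals printed beside a bound are not normalized, and their order can differ from it. Of the general neuron markers 5 of 10 were named, and their summed signal was 16758 and 1748 in the EP animals, 19644 and 17029 in the estrogen animals, and 4835 and 8231 in the placebo animals, with none at 0. Of the 11 serotonin neuron markers 8 were named, and 5 and 4 of them stood above the floor in the EP animals, 6 and 7 in the estrogen animals, and 4 and 5 in the placebo animals. The summed signal of these 8 was 1648 and 2375 in the EP animals, 1774 and 1063 in the estrogen animals, and 2158 and 1996 in the placebo animals. Among them TPH2 stood above the floor only in the 2 estrogen animals, whereas FEV, GCH1 and GATA3 stood above it on all 6 arrays. Glial transcripts were present too. The 4 named oligodendrocyte markers summed to 56637 and 2884 in the EP animals, 41625 and 56391 in the estrogen animals, and 34358 and 48513 in the placebo animals, and the 8 named astrocyte markers to 79169 and 4288 in the EP animals, 68500.4 and 79278 in the estrogen animals, and 24579.5 and 24621 in the placebo animals. The general neuron and astrocyte sums were thus higher in both estrogen animals than in both placebo animals. In the second EP animal the general neuron, oligodendrocyte and astrocyte sums were lowest. The serotonin neuron sums were lower in both estrogen animals than in both placebo animals, and highest in the second EP animal. Divided by each array's floor, the serotonin neuron sums were 21.99 and 8.39 in EP animals and 59.2 and 20.6 in estrogen animals. In placebo animals they were 9.996 and 9.04. Estrogen then lay above placebo, and the second EP animal was lowest. On the normalized log2 scale the median estrogen minus placebo difference was -0.01 for general neuron markers and 1.07 for astrocyte markers. For the 5 tested serotonin neuron markers it was -0.34. What part these marker sets had in the differences below was not tested. Fewer cells of a type and less RNA per cell cannot be told apart.

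Much of the transport machinery was detected. In EP animals 77 and 42 of the 113 probe sets stood above the floor, against 91 and 88 in estrogen animals and 56 and 55 in placebo animals. Both animals of a group were above it for 33 probe sets with EP (29.2%; 19.1% of all probe sets), 84 with estrogen (74.3%; 50.5%) and 37 with placebo (32.7%; 22.8%). Among the probe sets with 1 symbol, the only ones the rule could choose, these shares were 21.3% with EP, 62.9% with estrogen and 26.1% with placebo. Genes with a probe set above the floor on every array numbered 17 and included the motor subunits KIF5A, KIF5C, KIF3C, KIF2A, KIF21A, KLC2, DYNC1LI2 and DYNLL1, the tubulins TUBA4A, TUBB, TUBB3 and TUBG1, and the stathmins STMN2 and STMN3. The 5 genes above no array's floor were KIF12, KIF16B, KIF23, KLC1 and TUBB1. Of the 113 probe sets 19 (16.8%) were above the floor on all 6 arrays, against 10.1% of all probe sets and 11.9% of those with 1 symbol, and 12 (10.6%) on none, against 19.5% of all and 14.4% of those with 1 symbol. The shares differed between arrays in the same order for these genes as for all probe sets, whose values were 49.6% and 28.7% with EP, 62.2% and 58.5% with estrogen, and 37.3% and 36.3% with placebo.

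**Figure D1:**
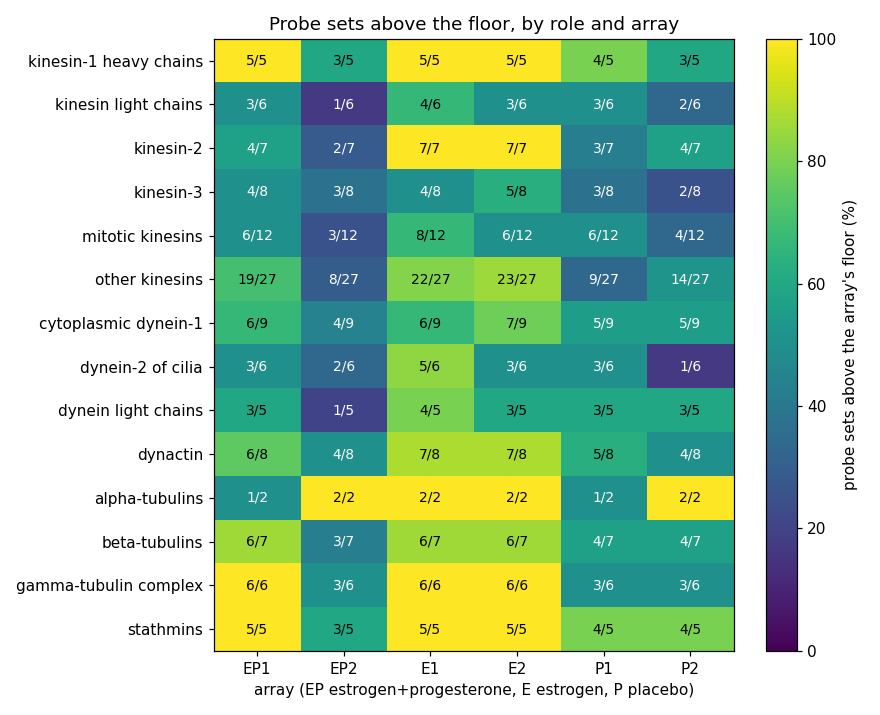
Number of probe sets above the array's floor out of all probe sets of each role (cells), with the color giving the percentage; columns are the 6 arrays, EP estrogen+progesterone, E estrogen and P placebo. The estrogen columns are the fullest, with 91 and 88 of 113 probe sets over all roles, and the second EP column is the emptiest, with 42.

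No kinesin, dynein, tubulin or stathmin passed the test in any comparison, and no other probe set of the array did. Filtering on mean signal left 81 of the 113 probe sets, from 51 genes, among 26383 tested. For EP against estrogen, EP against placebo and estrogen against placebo, 0 of the 81 reached an adjusted p under 0.05, against a background of 0% of all probe sets in each. The smallest adjusted p among the 81 was 0.799 for EP against estrogen, 0.992 for EP against placebo and 0.635 for estrogen against placebo. All directions below are therefore directions of measured values that did not pass.

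Transport genes were lower more often than higher in EP animals than in estrogen animals. The median log2 difference was -0.65 over the 81 probe sets and -0.22 over all probe sets tested, and 24 of the 81 (29.6%) lay above 0, against 42.6% of all. The 14694 tested probe sets with 1 symbol were nearer to the transport genes, with a median of -0.46 and 33.0% above 0. Groups did not overlap, with EP lower, for 24 of the 81 (29.6%), against 16.6% of all probe sets and 19.5% of those with 1 symbol, and with EP higher for 9 (11.1%), against 17.6% and 12.3%. A probe set of KIF3B and one of TUBB, each with the second EP animal below its floor, had an unadjusted p under 0.05 (limma) with EP lower. They were 2 of the 81 (2.47%, against 0.277% of all), and none of the 81 had such a p with EP higher (1.48% of all). Without the first EP animal the median was -1.11 over the 78 of these probe sets tested there, beside -0.24 for all probe sets. In that fit the lone second EP animal was taken to vary like the other groups. Without the second EP animal the median was -0.04, beside 0.04 for all.

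Values against placebo were spread around or above 0. For EP minus placebo the median log2 difference was 0.10 (all probe sets, -0.03), with 42 of 81 above 0 (51.9%; all, 48.8%). EP was higher without overlap for 12 of the 81 (14.8%; all, 12.4%) and lower for 10 (12.3%; all, 12.3%), which is the background share or close to it. That median was 0.41 without the second EP animal and -0.37 without the first. For estrogen minus placebo the median was 0.53 (all, 0.17; 1 symbol, 0.41), with 55 of 81 above 0 (67.9%; all, 55.2%; 1 symbol, 64.3%). Estrogen was higher without overlap for 29 of the 81 (35.8%; all, 29.0%; 1 symbol, 35%) and lower for 13 (16%; all, 24.8%; 1 symbol, 17.4%), so these shares were near those of probe sets with 1 symbol. Unadjusted p values under 0.05 went to 5 of the 81 with EP above placebo (6.17%; 2.05% of all, 2.36% with 1 symbol) and to 1 with EP below it (1.23%; 1.25% of all). They likewise went to 5 with estrogen above placebo (6.17%; 4.59% of all, 5.95% with 1 symbol) and to 1 with estrogen below it (1.23%; 3.24% of all, 1.16% with 1 symbol). Both placebo comparisons use the same placebo animals, and both comparisons of estrogen the same estrogen animals. With only each array's median aligned, the median of all tested probe sets was -0.74, 0.27 and 1.11 for EP minus estrogen, EP minus placebo and estrogen minus placebo, and that of the 81 was -1.37, 0.35 and 1.82. With the deposited scaling alone the medians of the 81 were -0.57, -0.10 and 0.58, beside 0.06, -0.17 and -0.14 for all.

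**Figure D2:**
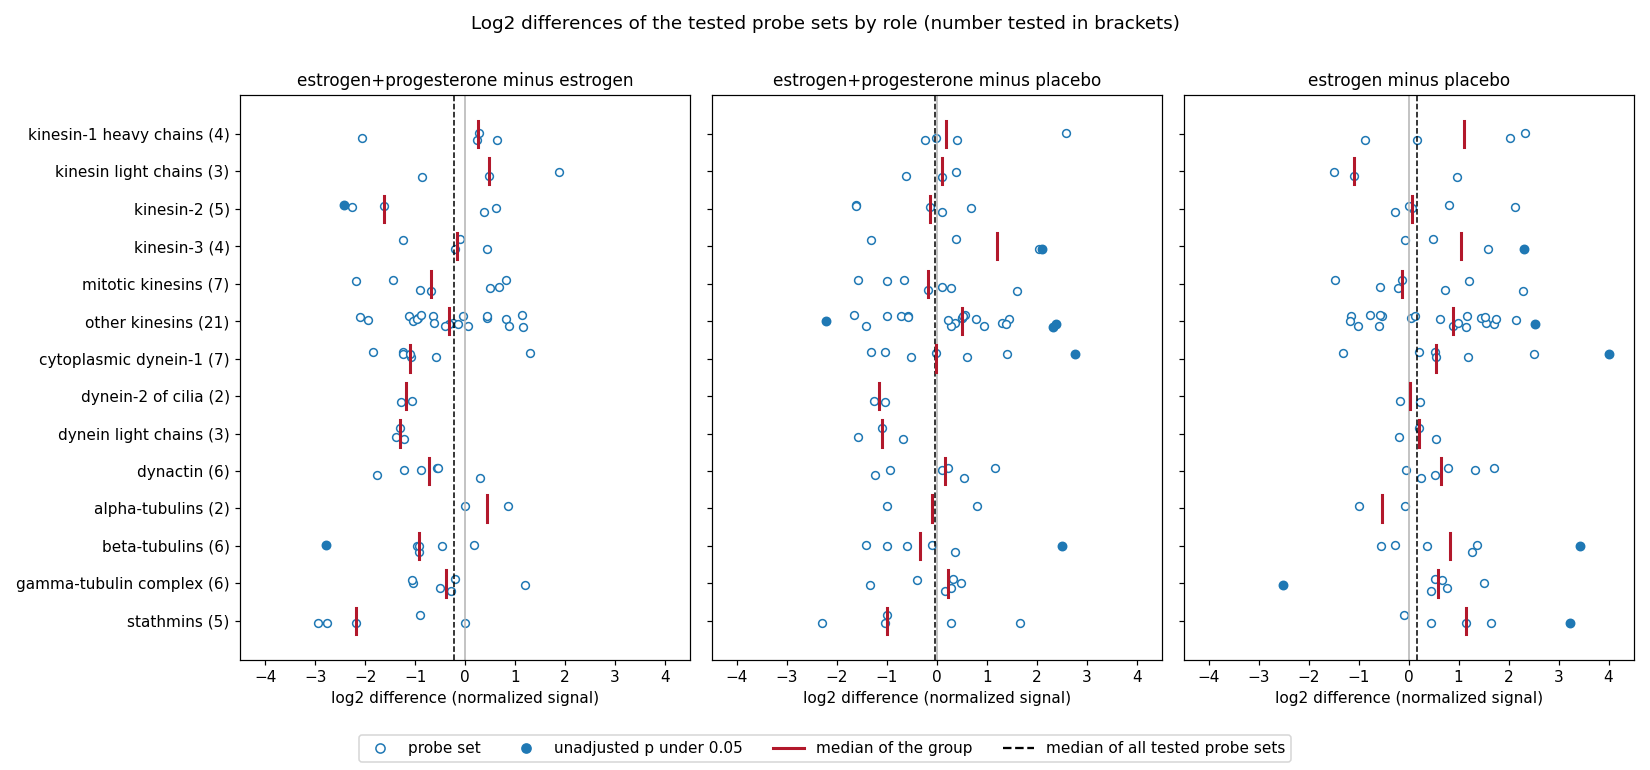
Log2 difference of each of the 81 tested probe sets (circles; filled, unadjusted p under 0.05) by role, with the number tested in brackets, the role's median (red) and the median of all 26383 tested probe sets (dashed). Stathmins have the lowest role median for EP minus estrogen, at -2.19, and the highest for estrogen minus placebo, at 1.14, and single probe sets range from -2.94 to 4.02 over the 3 comparisons.

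Medians by role differed between classes, and the 5 lowest for EP minus estrogen were farther from 0 for the second EP animal than for the first. These 5 were -2.19 over 5 stathmin probe sets, -1.63 over 5 of kinesin-2, -1.30 over 3 of dynein light chains, -1.18 over 2 of the ciliary dynein-2 and -1.11 over 7 of cytoplasmic dynein-1, with the same sign under the other scalings. For the first EP animal alone minus the estrogen mean the medians were -0.27 for stathmins, -0.16 for kinesin-2, 0.31 for dynein light chains, 0.13 for dynein-2 and 0.014 for cytoplasmic dynein-1. For the second EP animal they were -3.60, -3.10, -2.77, -2.49 and -2.36 in the same order of roles. For estrogen minus placebo the role medians were 1.14 for stathmins, 1.10 over 4 probe sets of kinesin-1 heavy chains, 1.04 over 4 of kinesin-3, 0.90 over 21 of the other kinesins and 0.82 over 6 of beta-tubulins, with the same sign under the other scalings. Light chains of kinesin-1 stood at -1.10 over 3 probe sets, but at 0.13 with only the array medians aligned. Over the 14 roles the sign of the median depended on the scaling in 3 roles for EP minus estrogen, 8 for EP minus placebo and 5 for estrogen minus placebo.

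Kinesin-1, the motor of fast transport toward the terminal, is a pair of heavy chains joined to a pair of light chains. KIF5A, the heavy chain made mainly in neurons, had signals of 309 and 384 in EP animals, 248 and 318 in estrogen animals, and 307 and 295 in placebo animals. All 6 values were above the floor and lay close together. Its log2 differences were 0.23 ± 0.80 (SE) for EP minus estrogen, 0.40 ± 0.80 for EP minus placebo and 0.17 ± 0.80 for estrogen minus placebo. KIF5B, the heavy chain found in most cell types, gave 8886 and 277 in EP animals, 9787 and 4311 in estrogen animals, and 1589.5 and 409 in placebo animals. The first EP animal lay inside the estrogen range and the second was below its floor and below every other animal. Estrogen and placebo did not overlap, with a log2 difference of 2.03 ± 1.42 (adjusted p = 0.705, limma), and EP minus placebo was -0.03 ± 1.42. KIF5C, a neuron-enriched heavy chain, gave 3656 and 949 in EP animals, 5002 and 2083 in estrogen animals, and 2129 and 51.5 in placebo animals. Both hormone groups overlapped with placebo, whose second animal alone was below the floor, and the differences were 2.59 ± 1.58 for EP minus placebo and 2.33 ± 1.58 for estrogen minus placebo. Without that placebo animal they were -0.37 and -0.63. A second KIF5C probe set had an estrogen minus placebo difference of -0.87, but of 0.17 with only the array medians aligned.

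Light chains link kinesin-1 to its cargo. KLC2 had signals of 319 and 1215 in EP animals, 406 and 220.2 in estrogen animals, and 768 and 581 in placebo animals, all above the floor. Estrogen lay below placebo without overlap (-1.49 ± 1.13, adjusted p = 0.727, limma; 0.13 with only the array medians aligned), while the first EP animal lay inside the estrogen range and the second above every other animal. KLC3, a light chain known from sperm tails in the rat, gave 178 and 252 in EP animals, 72.6 and 96.2 in estrogen animals, and 392 and 274 in placebo animals, a difference of -1.10 ± 0.82 for estrogen minus placebo. Those estrogen signals were above low floors and the placebo signals above high ones. KLC1 was below the floor on every array.

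Kinesin-2 motors carry vesicles in axons and build cilia. KIF3B, which pairs with KIF3A, gave signals of 577 and 44.1 in EP animals, 771 and 1090.1 in estrogen animals, and 249 and 173 in placebo animals. Estrogen lay above both other groups without overlap, with log2 differences of -2.26 ± 1.16 for EP minus estrogen and 2.13 ± 1.16 for estrogen minus placebo. A second KIF3B probe set gave 55.5 and 16 in EP animals, 80.5 and 416 in estrogen animals, and 187 and 201 in placebo animals. It was above the floor in the estrogen animals only, so EP was at least 1.56-fold lower than estrogen on the normalized scale. The fitted difference of -2.42 ± 0.96 had an adjusted p of 0.799 (limma). With 1 array left out that difference ran from -3.38 to -1.51. KIF3A, its partner, was above the floor in both estrogen animals, at 46.8 and 52.1, and in the second placebo animal, at 372, and was too low to be tested.

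Kinesin-3 motors bring synaptic vesicle precursors to the terminal. KIF1B, which also carries mitochondria, is given first by the probe set of highest mean, at 216 and 207 in EP animals, 139 and 159.8 in estrogen animals, and 234 and 168 in placebo animals. These values lay close together, and no difference exceeded 0.49 on the log2 scale, with SEs of 0.83. The second EP and second placebo values were below their floors. Another KIF1B probe set gave 83.7 and 341 in EP animals, 95.3 and 284 in estrogen animals, and 41.8 and 56.2 in placebo animals. It was above the floor in all 4 hormone-treated animals and in neither placebo animal, so that EP was at least 1.20-fold and estrogen at least 1.37-fold higher than placebo. The fitted differences were 2.11 ± 0.87 (adjusted p = 0.992, limma) for EP minus placebo and 2.31 ± 0.87 (adjusted p = 0.635, limma) for estrogen minus placebo. A further KIF1B probe set was also higher in estrogen than in placebo animals, by 1.60. The bounds are on the normalized scale, allow for the floor alone and hold no allowance for the spread between animals. On the deposited scale the first EP and first estrogen signals were lower than the floors of both placebo arrays.

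Kinesins of cell division were represented by 12 probe sets of 7 genes, although neurons do not divide. Of these 6 and 3 stood above the floor in EP animals, 8 and 6 in estrogen animals, and 6 and 4 in placebo animals. Of 8 named markers of cycling cells, 3 and 2 were above it in EP animals, 5 and 5 in estrogen animals, and 6 and 4 in placebo animals. KIFC1, a motor that focuses spindle poles, was above the floor on every array, at 99.4 and 332 in EP animals, 39.5 and 88.9 in estrogen animals, and 269 and 413 in placebo animals. Its estrogen and placebo values did not overlap, with a difference of -1.47 ± 0.87. KIF20B, a motor of cytokinesis, gave 421 and 135 in EP animals, 535 and 790.3 in estrogen animals, and 628 and 389 in placebo animals, an EP minus placebo difference of -1.57 ± 0.96. The second EP animal alone was below its floor, and the first EP animal minus the placebo mean was -0.51. Other tested probe sets of KIF20B, for EP minus placebo, had differences of 1.60 and -0.99.

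The remaining kinesins include microtubule-trimming and ciliary motors. KIF2A, which takes apart microtubule ends and in mouse neurons limits side branches of the axon, had 4 tested probe sets, all higher in estrogen than in placebo animals, with log2 differences of 0.90, 1.17, 1.45 and 2.52. The last of these gave 556 and 372 in EP animals, 567 and 523 in estrogen animals, and 47.0 and 204 in placebo animals. All 4 hormone-treated animals lay above the floor and above both placebo animals, which were below it. EP was at least 2.57-fold and estrogen at least 2.85-fold higher than placebo, and the fitted differences were 2.38 ± 0.89 (adjusted p = 0.992, limma) and 2.52 ± 0.89 (adjusted p = 0.635, limma). KIF26A, an atypical kinesin that lacks ATPase activity in the mouse, gave 99.6 and 398 in EP animals, 37.4 and 80.8 in estrogen animals, and 11.2 and 154 in placebo animals. On the normalized scale EP was at least 1.5-fold higher than placebo, although the first EP signal was below the second placebo signal. A second KIF26A probe set had an EP minus placebo difference of 0.57, or -0.39 with the deposited scaling alone, beside 2.31 for the first.

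KIF27, a relative of the hedgehog-pathway kinesin KIF7, pointed both ways. One of its probe sets gave 26.6 and 155 in EP animals, 117 and 75.3 in estrogen animals, and 256 and 471 in placebo animals. It was below the floor in both EP animals and above it in both placebo animals, so that EP was at least 2.16-fold lower, with a fitted difference of -2.21 ± 0.90 (adjusted p = 0.992, limma). The other gave 229 and 297 in EP animals, 425 and 183 in estrogen animals, and 82.5 and 216 in placebo animals, and stood above the floor in all 4 hormone-treated animals and in neither placebo animal. Its EP minus placebo difference was 1.30 ± 0.87. KIFC3, a motor that walks toward microtubule minus ends, was at 396 and 124 in EP animals, 424 and 284 in estrogen animals, and 451 and 535 in placebo animals, an EP minus placebo difference of -1.66 ± 0.94. The second EP animal alone was below its floor, and the first EP animal minus the placebo mean was -0.58. KIF25, a minus-end motor tied to centrosome position, was at 121 and 258 in EP animals, 52.5 and 95.7 in estrogen animals, and 269.9 and 368 in placebo animals, with an estrogen minus placebo difference of -1.16 ± 0.82.

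Cytoplasmic dynein is built around a heavy chain with intermediate, light intermediate and light chains. The light intermediate chain DYNC1LI2, which joins the motor to cargo adaptors, had the largest estrogen minus placebo difference of the 81 probe sets. Its signals were 1285 and 368 in EP animals, 1407 and 3159 in estrogen animals, and 29.0 and 255 in placebo animals, of which only the first placebo value was below its floor. The 3 groups did not overlap, with EP between the others. Log2 differences were -1.25 ± 1.07 for EP minus estrogen, 2.77 ± 1.07 (adjusted p = 0.992, limma) for EP minus placebo and 4.02 ± 1.07 (adjusted p = 0.635, limma) for estrogen minus placebo. Across the alternative settings the adjusted p of the last ran between 0.0359, with weights estimated for the arrays, and 1.0. The other 3 probe sets of DYNC1LI2 had estrogen minus placebo differences of 2.52, 0.55 and 0.22. The one with the highest mean gave 10817 and 536 in EP animals, 9006 and 6194 in estrogen animals, and 4973 and 1185 in placebo animals, and its groups overlapped in each comparison.

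DYNC1LI1, the other light intermediate chain, gave 513 and 50.6 in EP animals, 769 and 546 in estrogen animals, and 240.5 and 561 in placebo animals. Only the second EP animal was below the floor, and EP lay below estrogen without overlap (-1.86 ± 1.19). The first EP animal minus the estrogen mean was only -0.15, and the second -3.56. The intermediate chain DYNC1I2 was low, at 42.5 and 406 in EP animals, 16.4 and 57.1 in estrogen animals, and 318 and 147 in placebo animals, with 1 animal of each group above the floor. The heavy chain DYNC1H1, which holds the motor itself, was above the floor only in the second placebo animal, with signals of 9.94 and 41.0 in EP animals, 5.61 and 7.16 in estrogen animals, and 204 and 341 in placebo animals, and it was not tested. DYNLL1, a light chain shared by dynein and many other complexes, gave 13428 and 591 in EP animals, 12278 and 7808 in estrogen animals, and 2341 and 6522 in placebo animals. Every value was above the floor, the second EP animal was lowest, and the differences were -1.23 ± 1.10 for EP minus estrogen and 0.55 ± 1.10 for estrogen minus placebo.

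Dynactin is the cofactor that lets dynein move long distances. DCTN1, its microtubule-binding arm, gave 1858 and 417 in EP animals, 1975 and 1447 in estrogen animals, and 1751 and 214 in placebo animals, of which only the last was below its floor. The first EP animal, both estrogen animals and the first placebo animal lay close together, and all 3 groups overlapped, with an estrogen minus placebo difference of 0.78 ± 1.23. Without the second placebo animal that difference was -1.18, and without the first it was 2.94. Of the 6 tested dynactin probe sets, from 4 genes, 5 lay above 0 for estrogen minus placebo and 1 for EP minus estrogen.

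**Figure D3:**
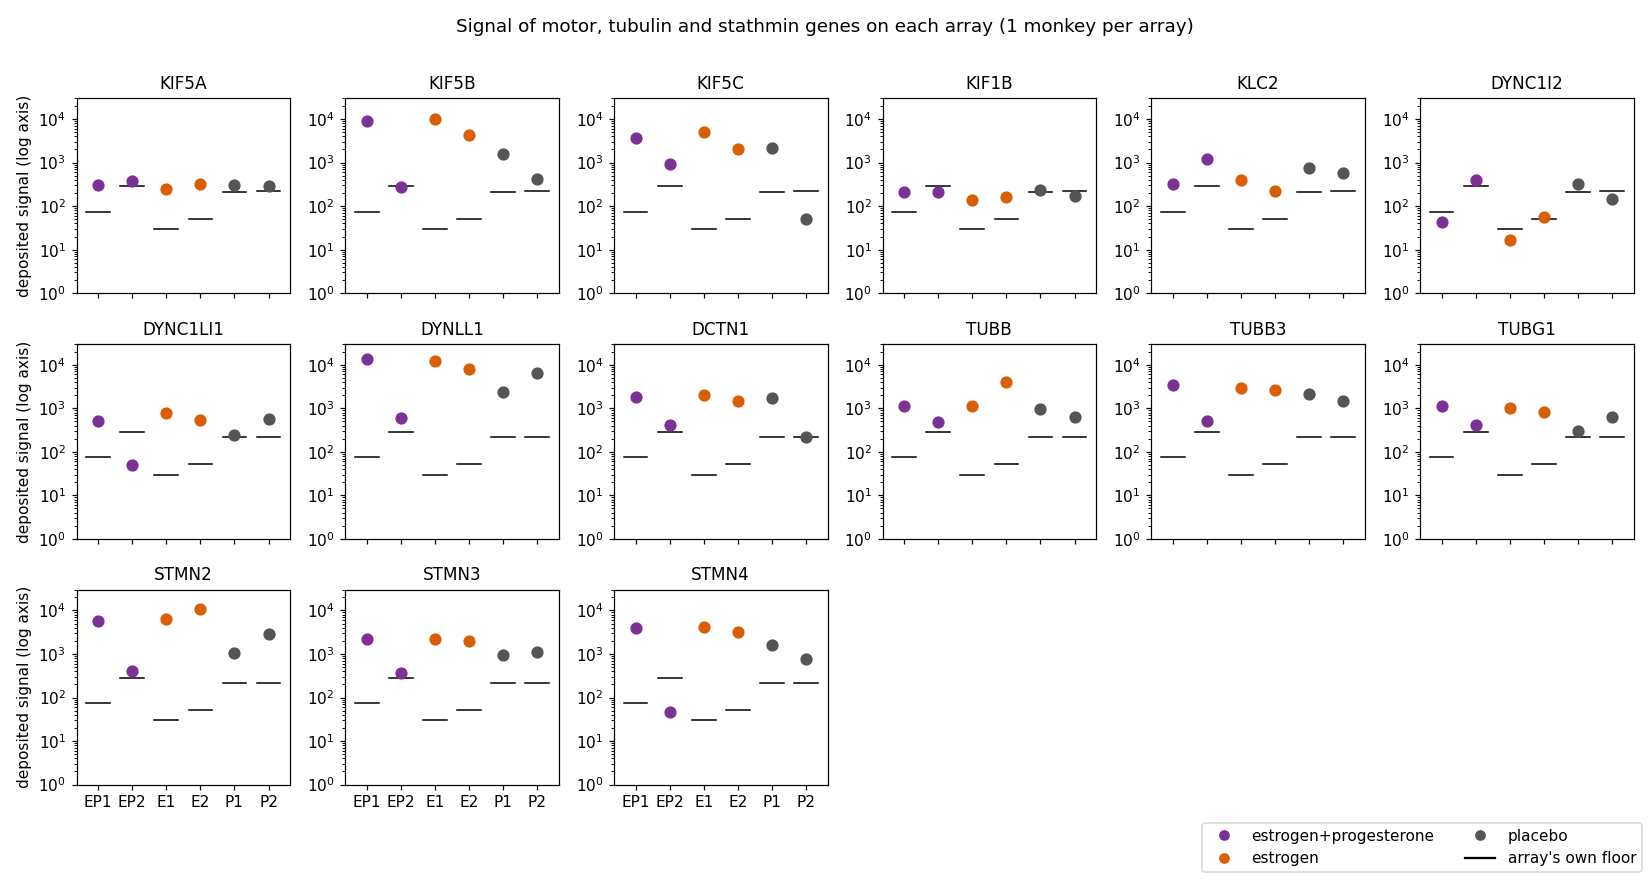
Deposited signal (log axis) of each tested gene named whatever its values, by the probe set of highest mean, on the 6 arrays (EP estrogen+progesterone, E estrogen, P placebo), with black bars at each array's floor. EP2 lies far below EP1 for KIF5B, STMN4 and DYNLL1 (277, 47.6 and 591 against 8886, 4049 and 13428), whereas KIF5A stays between 248 and 384 on all 6 arrays.

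Tubulin signals may be uncertain at the level of the gene, because the coding sequences of the isotypes are much alike and a probe set may bind several. Probe sequences were not available, so this was not tested. The alpha-tubulin TUBA4A gave 2281 and 709 in EP animals, 2129 and 2639 in estrogen animals, and 2722 and 1686 in placebo animals, all above the floor. Both hormone groups lay below placebo on the normalized scale, with differences of -0.99 ± 0.82 for EP and -1.0 ± 0.82 for estrogen, but the estrogen difference was 0.14 with the deposited scaling alone and 1.39 with only the array medians aligned. TUBB, a beta-tubulin of most cell types, gave 1125 and 478 in EP animals, 1131 and 3959 in estrogen animals, and 972 and 642 in placebo animals. Its second probe set gave 302 and 39.4 in EP animals, 269 and 3071 in estrogen animals, and 263 and 376 in placebo animals. In both probe sets the second estrogen animal was the highest of the 6, and the EP minus estrogen differences were -0.96 ± 0.90 and -2.79 ± 1.24. In the second probe set the second EP animal was below its floor, and the first EP signal exceeded the first estrogen signal.

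TUBB3, the beta-tubulin isotype used as a marker of neurons, had 4 tested probe sets. The one with the highest mean gave 3472 and 515 in EP animals, 2982 and 2568 in estrogen animals, and 2111 and 1461 in placebo animals, all above the floor. Its estrogen minus placebo difference was -0.54 ± 0.87, but 0.65 with the deposited scaling alone and 1.90 with only the array medians aligned. Another probe set gave 442 and 299 in EP animals, 549 and 1062 in estrogen animals, and 191 and 12.9 in placebo animals. There all 4 hormone-treated animals were above the floor and both placebo animals below it, so that EP was at least 1.94-fold and estrogen at least 3.69-fold higher than placebo. The fitted differences were 2.50 ± 1.02 for EP minus placebo (adjusted p = 0.992, limma) and 3.43 ± 1.02 for estrogen minus placebo (adjusted p = 0.635, limma). Across the alternative settings the adjusted p for estrogen minus placebo ran between 0.0441, with weights estimated for the arrays, and 1.0. The probe set whose suffix marks probes that may bind other sequences had an estrogen minus placebo difference of 1.27, and the one left had -0.27.

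Gamma-tubulin and its ring complex start new microtubules. TUBG1 gave 1123 and 409 in EP animals, 1036 and 837 in estrogen animals, and 305 and 624 in placebo animals, all above the floor, with an estrogen minus placebo difference of 0.53 ± 0.89. TUBGCP2, a subunit of the ring, had the lowest estrogen minus placebo difference of the 81 probe sets, in a probe set above the floor on every array. Its signals were 170.0 and 392 in EP animals, 99.5 and 57.2 in estrogen animals, and 784 and 449 in placebo animals. The 3 groups did not overlap, with EP in between. The differences were 1.19 ± 0.87 for EP minus estrogen, -1.33 ± 0.87 for EP minus placebo and -2.52 ± 0.87 for estrogen minus placebo (adjusted p = 0.635, limma). The second TUBGCP2 probe set, also above the floor on every array, gave 229 and 354 in EP animals, 253 and 513 in estrogen animals, and 337 and 264 in placebo animals, an estrogen minus placebo difference of 0.44 ± 0.82.

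The stathmins were the class with the lowest EP minus estrogen median, and the second EP animal had the lowest signal of all in 4 of their 5 probe sets. STMN2, a stathmin of growing axons, gave 5576 and 397 in EP animals, 6209 and 10949.7 in estrogen animals, and 1073 and 2941 in placebo animals, all above the floor. A second STMN2 probe set gave 7171 and 279.8 in EP animals, 7178 and 13949.7 in estrogen animals, and 1105 and 339 in placebo animals, with the second EP animal alone below its floor. In both, the estrogen animals were the highest of the 6 and the second EP animal the lowest, with EP minus estrogen differences of -2.19 ± 1.08 and -2.94 ± 1.36. The corresponding estrogen minus placebo differences were 1.14 ± 1.08 and 3.22 ± 1.36 (adjusted p = 0.635 for the second, limma). Without the second EP animal, EP minus estrogen was -0.77 and -0.83.

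STMN4, a brain stathmin, gave 4049 and 47.6 in EP animals, 4143 and 3125 in estrogen animals, and 1603 and 761 in placebo animals. The first EP animal lay inside the estrogen range and the second was the only animal below its floor. EP minus estrogen was -2.76 ± 1.53, but 0.10 without the second EP animal. STMN3, a neuronal stathmin likewise, gave 2232 and 366 in EP animals, 2242 and 1953 in estrogen animals, and 925 and 1099 in placebo animals, with the first EP animal again inside the estrogen range, the second lowest of the 6, and an EP minus estrogen difference of -0.91 ± 0.91. Its second probe set, at 164 and 345 in EP animals, 215 and 220.2 in estrogen animals, and 79.9 and 149 in placebo animals, was above the floor in all 4 hormone-treated animals and in neither placebo animal. Both hormone groups were at least 1.58-fold higher than placebo there on the normalized scale, with fitted differences of 1.65 ± 0.82 each.

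The EP pair differed more between animals than the other pairs. The median absolute log2 difference between the animals of a pair, over the 81 probe sets, was 1.5 with EP, 0.45 with estrogen and 1.05 with placebo, and over all tested probe sets it was 1.55 with EP, 0.39 with estrogen and 0.92 with placebo. The first EP animal stayed near the estrogen mean, with a median difference of -0.03 and 78 of 81 probe sets within 1 log2 unit of it (96.3%; all tested probe sets, 92.0%). The second had a median difference of -1.19 and 25 of 81 within 1 unit (30.9%; all, 32.9%). Against the placebo mean the median was 0.38 for the first EP animal, with 56 of 81 above 0, and -0.46 for the second, with 32 above 0. Over all 26383 tested probe sets it was 0.20, with 14995 above 0, and -0.12, with 12383 above 0. Across the 81 probe sets Pearson's r was 0.264 between the EP arrays, 0.897 between the estrogen arrays and 0.548 between the placebo arrays, and 0.965 between the first EP array and the first estrogen array. Over all 26383 tested probe sets these were 0.00048, 0.862, 0.518 and 0.913 in the same order. These are descriptions across probe sets, which share arrays and are not independent replicates.

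**Figure D4:**
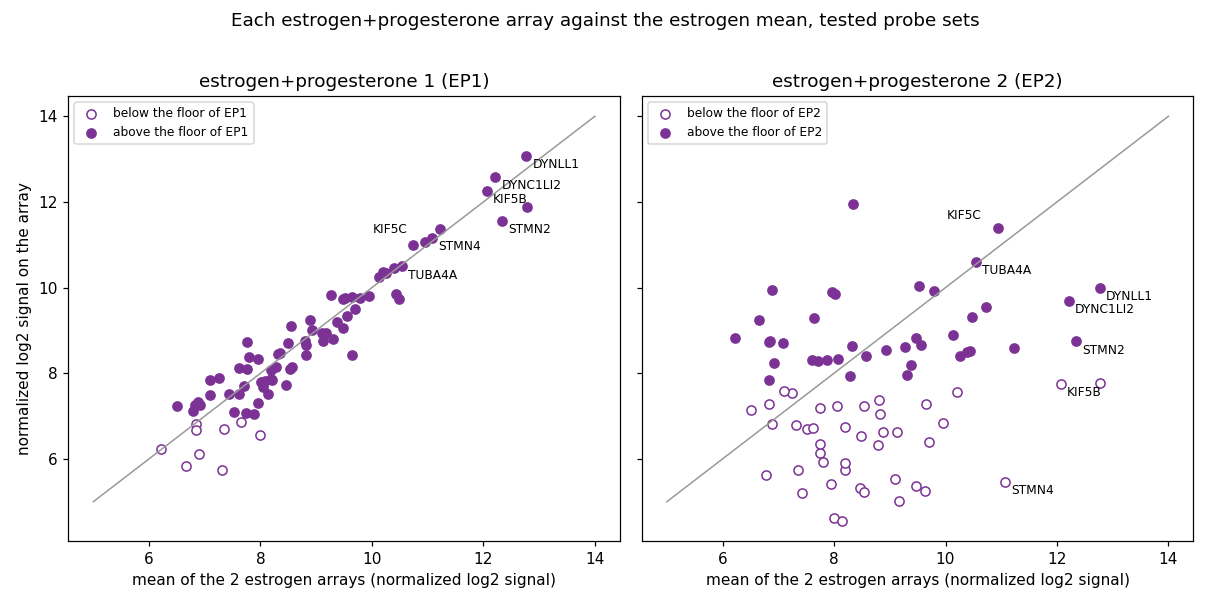
Normalized log2 signal of the 81 tested probe sets on each EP array (vertical) against the mean of the 2 estrogen arrays (horizontal), with filled points above that EP array's floor and the line of equality. EP1 follows the line, with 78 of 81 points within 1 unit, while on EP2 only 25 are. Of the labelled genes high with estrogen, STMN2 and KIF5B lie far below the line on EP2, whereas KIF5C (0.43) and TUBA4A (0.05) lie near it.

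Probe sets of 1 gene often disagreed. Among the 19 genes with 2 or more tested probe sets, all probe sets were higher in estrogen than in placebo animals for 8 genes, all lower for 0, and mixed for 11, and the median range within a gene was 1.77 log2 units. For EP minus estrogen 2 genes were all higher, 9 all lower and 8 mixed, and for EP minus placebo 3, 2 and 14. Matching counts for other genes of the array were not computed, so these counts have no background. Among tested probe sets with 1 symbol, 64.3% lay above 0 for estrogen minus placebo, 33.0% for EP minus estrogen and 50.2% for EP minus placebo. The 8 genes were KIF1B, KIF2A, KIF3B, DYNC1LI1, DYNC1LI2, TUBB, TUBGCP6 and STMN2, of which KIF1B, KIF3B and TUBGCP6 also had probe sets below 0 with the deposited scaling alone. DCTN4, a subunit at the pointed end of dynactin, was among the mixed ones, with differences of 1.71, 0.25 and -0.06, the last of which was 1.05 with the deposited scaling alone, where the middle one was -0.62. The 19 probe sets above the floor on all 6 arrays had a median estrogen minus placebo difference of -0.06. It was -0.36 for all 5314 such probe sets of the array and -0.15 for the 2959 of them with 1 symbol. The other 62 tested probe sets had a median of 0.78, beside 0.33 for all 21069 others of the array and 0.58 for the 11735 of them with 1 symbol. A probe set low in placebo, where floors are high, is counted among these others by construction. For EP minus estrogen the median over the 19 was -0.20, beside 0.21 over the 5314 and -0.00094 with 1 symbol. Over the 62 it was -0.87, beside -0.35 over the 21069 and -0.60 with 1 symbol. For EP minus placebo the median over the 19 was -0.60, beside -0.16 and -0.15, and over the 62 it was 0.25, beside 0.02 and 0.07. Of the 113 probe sets, 20 (17.7%) were above the floor in both estrogen animals and in neither placebo animal, against 14.8% of all probe sets and 18.7% of those with 1 symbol, and 0 the other way round, against 1.05% and 0.489%. For EP against placebo these counts were 6 (5.31%; all, 2.72%; 1 symbol, 2.97%) and 1 (0.885%; all, 1.5%), and the 6 belonged to KIF1B, KIF2A, KIF26A, KIF27, STMN3 and TUBB3. For EP against estrogen 0 were above the floor in both EP animals and neither estrogen animal (all, 0.635%), and 7 the other way round (6.19%; all, 6.08%).

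**Figure D5:**
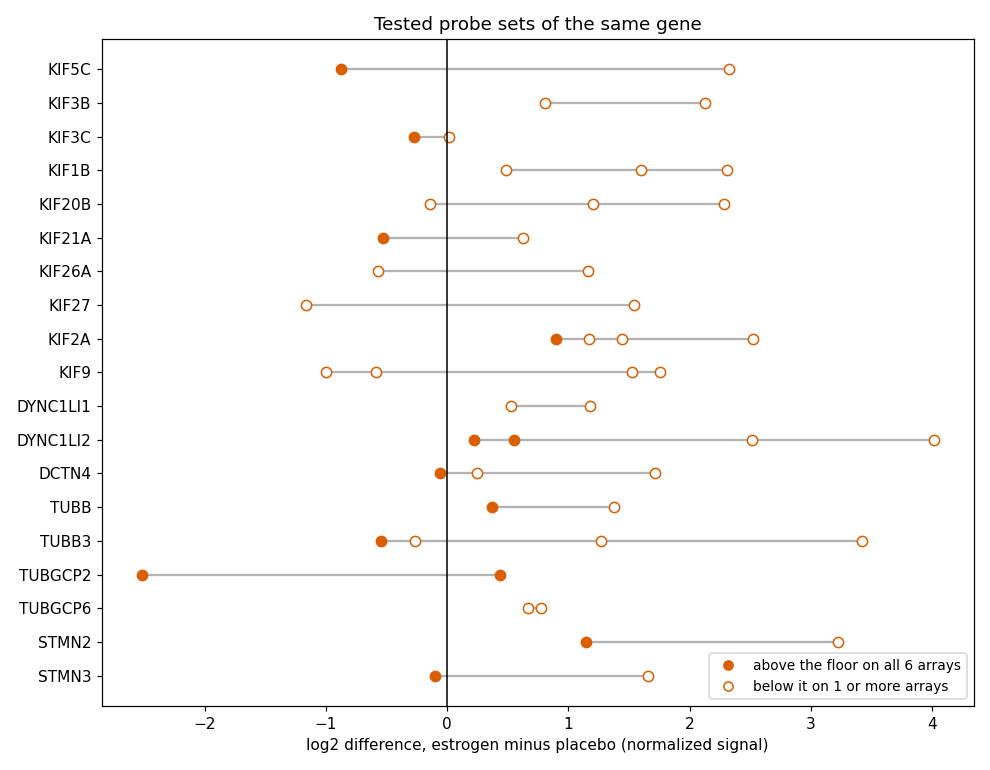
Log2 difference, estrogen minus placebo, of each tested probe set of the 19 genes with 2 or more, filled where the probe set is above the floor on all 6 arrays. DYNC1LI2 and KIF2A lie right of 0 throughout, whereas TUBGCP2 has probe sets at -2.52 and 0.44 and TUBB3 spans -0.54 to 3.43.

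Other genes of microtubule transport were each read by their brightest probe set, and 0 of them passed the test in either direction in any comparison. Of 17 microtubule-associated proteins 9 were named and tested, with medians of -1.19 for EP minus estrogen, 0.01 for EP minus placebo and 1.05 for estrogen minus placebo. CRMP1, a semaphorin-signaling protein that binds tubulin, had the smallest unadjusted p of that list, with signals of 374 and 25.2 in EP animals, 535 and 1623 in estrogen animals, and 142 and 19.1 in placebo animals. Placebo was below the floor in both animals, estrogen was at least 4.35-fold higher, and the fitted difference was 3.78 ± 1.27. Of 28 cargo and dynein adaptors 25 were named and 18 tested, with medians of -1.19, -0.34 and 0.51 for EP minus estrogen, EP minus placebo and estrogen minus placebo. KIFBP, which binds kinesin motor domains, gave 1044 and 312 in EP animals, 1087 and 853 in estrogen animals, and 72.2 and 255 in placebo animals, with differences of 2.00 ± 0.96 for EP minus placebo and 2.66 ± 0.96 for estrogen minus placebo. ACTR1B, an actin-related subunit of the dynactin filament, gave 988 and 55.7 in EP animals, 899.8 and 1165 in estrogen animals, and 1376 and 1142 in placebo animals, an EP minus placebo difference of -3.18 ± 1.20. Here again the second EP animal alone was below its floor.

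Tubulin folding and modifying enzymes and neurofilaments completed the comparison. Of 20 such enzymes 12 were named and tested, with medians of -0.71 for EP minus estrogen, -0.36 for EP minus placebo and 0.35 for estrogen minus placebo, and TTL, which restores the terminal tyrosine of alpha-tubulin, had an estrogen minus placebo difference of 1.5 ± 1.27. Of 5 neurofilament genes 2 were named. PRPH, the intermediate filament peripherin, gave 219 and 317 in EP animals, 173 and 176 in estrogen animals, and 544 and 520.1 in placebo animals, all above the floor. Both hormone groups lay below placebo without overlap, with differences of -1.33 ± 0.80 for EP and -1.55 ± 0.80 for estrogen (adjusted p = 0.992 and 0.651, limma). NEFH, the heavy neurofilament subunit, gave 7302 and 769 in EP animals, 5755 and 3430.1 in estrogen animals, and 3889 and 4079.9 in placebo animals, and its differences from placebo were -0.84 ± 0.84 in each hormone group, but 0.16 for estrogen with the deposited scaling alone.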

How the data were processed

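RNA of the laser-captured neurons was extracted with a column kit and biotin-labelled, per the labels' protocols, and hybridised to 1 array per monkey. The values the authors deposited are linear intensities, 1 for each probe set on each array, scaled to a common mean: trimmed by 2% at each end, it is 200.0 on every array. The summarization software is not given in the sources used here. Genes were named by the supplied platform annotation, with symbols updated by gene number; positions and sequences are not given here. Groups were read from the titles.

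From these, log2(intensity + 16) was computed and quantile normalized over 52766 probe sets, so differences of low signals are understated. The brighter 26383 by mean (50th percentile) were fitted with 1 mean per group over all 6 arrays in limma 3.58.1 (R 4.3.3), with empirical Bayes moderation (3 residual and 6.83 prior degrees of freedom), two-sided tests and Benjamini-Hochberg adjustment over all tested probe sets, at 0.05. An exact permutation test of 2 against 2 animals was not run because its smallest p is 0.333. A probe set below the floor in every animal of a group has only a bound. It was computed on the normalized scale from the other group's mean and, per array, the higher of the floor and its own value. Alternatives were an offset of 64, no normalization, centring on the median, no filter, the replicate number as a block, array weights, and leaving out each array.

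Genes named whatever their values were 30 transport genes, of which 19 had a probe set here and 15 were tested; KIF1A, KIF11, DYNC1I1, DYNLL2, DYNLT1, DCTN2, TUBA1A, TUBA1B, TUBB2A, TUBB4A and STMN1 were not analysed here. Added to these were, per comparison and direction, the 4 probe sets with the smallest unadjusted p whose groups did not overlap and differed by 1 or more on the log2 scale, and other probe sets of a named gene. TUBA4A and DCTN4 were named after their values were seen. For the pathway lists, genes with the smallest unadjusted p were named. The members and lists were chosen with earlier results of these data known. Markers of microglia (10 named), endothelium (7 named) and the other types named in the text were only described; 8 and 3 microglial markers were above the floor with EP, 10 and 10 with estrogen, and 6 and 8 with placebo, and 4 and 1 endothelial markers with EP, 5 and 5 with estrogen, and 2 and 3 with placebo.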

Additional observations from a re-analysis of the deposited data

How the results depend on the processing

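Counts of calls moved in few settings. With array weights 434 of 26383 probe sets passed for estrogen minus placebo, against 0 with equal weights. Of the 81 transport probe sets 2 passed there (DYNC1LI2 and TUBB3). The weights were 0.320 for each EP array, 3.95 for each estrogen array and 0.793 for each placebo array. With 2 arrays in a group both receive the same weight, so the weights follow the spread of each group and cannot judge a single array. Leaving out single arrays gave 0 to 3599 probe sets and 0 to 11 transport probe sets for EP minus estrogen, all from the fit without the first EP animal. The 11 belonged to KIF3B, KIF3C, KIF20B, KIF26A, KLC2, DCTN3, DYNLRB2, STMN2 and STMN4. For the other comparisons and settings the count stayed at 0. The median of the 81 ranged, with 1 array left out, from -1.11 to -0.037 for EP minus estrogen, from -0.37 (without the first EP animal) to 0.41 for EP minus placebo and from 0.20 (without the second estrogen animal) to 0.58 for estrogen minus placebo. With arrays centred on the median only it was -1.37 for EP minus estrogen and 1.82 for estrogen minus placebo. Of 48 differences of single probe sets chosen from those given in the report, 32 kept their sign under each of the up to 12 alternatives that gave them a value. The other 16 did not, and the cause was not tested. Of all 93 differences of the named probe sets, only 48 had no reversed sign. Other printed differences, such as those of NEFH, DCTN4 and the second KIF5C probe set, were not among these 93.

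An offset of 64 turned KIF5B for EP minus placebo to 0.042. Without normalization that value was 0.97, KIF1B (brightest probe set) was 0.46 for EP minus estrogen and -0.38 for estrogen minus placebo, and for the same comparison with placebo KIF5A was -0.093, TUBB3 (brightest) 0.65 and TUBA4A 0.14. Centred on the median, KIF5A was -0.52 for EP minus estrogen and KIF5B 1.41 for EP minus placebo, and estrogen minus placebo was 0.13 for KLC2, 1.90 for TUBB3 (brightest) and 1.39 for TUBA4A. With 1 array left out, EP minus estrogen ran from -0.56 to 0.37 for KIF1B (brightest), from -2.73 to 0.28 for DYNLL1, from -1.74 to 0.083 for STMN3 and from -5.38 to 0.10 for STMN4, each above 0 without the second EP animal. EP minus placebo ran from -2.12 to 2.42 for KIF5B, from -0.37 to 5.77 for KIF5C and from -0.078 to 0.89 for KIF1B (brightest). Estrogen minus placebo ran from -0.63 to 5.51 for KIF5C and from -1.18 to 2.94 for DCTN1, each lowest without the second placebo animal, and from -0.25 to 1.39 for TUBG1, lowest without the first.

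The replicate numbers of the titles only share a number: deviations of same-numbered arrays correlated at 0.08 for EP and estrogen, -0.06 for EP and placebo and -0.03 for estrogen and placebo. With the replicate number as a block 0 probe sets passed in each comparison and the medians of the 81 stayed at -0.65, 0.10 and 0.53. Unadjusted p values under 0.05 numbered 765 with the block and 464 without it for EP minus estrogen, 808 and 870 for EP minus placebo, and 2072 and 2065 for estrogen minus placebo. Signal over background limits the 62 tested probe sets that were below the floor on 1 or more arrays.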
